A study of Homo sapiens with 8 samples.

Results

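ANKRD1 and 9 other target genes of the coactivator YAP and the transcription factor SRF were examined on 8 single-color Agilent expression arrays of HEK293T cells, a human embryonic kidney cell line. The genes were ANKRD1, CCN1 (older name CYR61), CCN2 (older name CTGF), AMOTL2, LATS2, AXL, ACTB, ACTG1, TAGLN, and CNN1. They were selected on their log2 levels across the 4 constructs and by clone, with earlier results of these data known, so these levels are given as a description and carry no p-value. They are measured by 12 of the 34127 probes of the array, 2 each for ACTB and TAGLN and 1 for each other gene, and all 12 probes were among the 22530 that passed the filter on dim signals. Each array holds 1 stable cell line, and each line was grown from 1 colony after transfection of a blasticidin-resistant plasmid and selection in blasticidin S. The 4 constructs were empty vector (clones #1 and #2), the wild-type catalytic domain of TET1 alone (TET1-CDwt #2 and #5), the same TET1 domain carrying the methyl-CpG-binding domain of MBD2 (MBD-TET1-CDwt #3 and #10), and that fusion with a catalytically inactive TET1 domain (MBD-TET1-CDmut #9 and #10). All lines thus share the HEK293T background and the resistance plasmid. Clone numbers are names of colonies, and a shared number links no lines.

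YAP and its relative TAZ are coactivators that enter the nucleus when the kinases of the Hippo pathway are inactive, and there they bind DNA through the TEAD factors. SRF binds CArG boxes and is driven either by the MRTF coactivators, which sense the pool of monomeric actin, or by the ETS-type ternary complex factors, which respond to growth factor signals. The pathways meet at the actin cytoskeleton and share targets. ANKRD1, an ankyrin repeat protein of stressed heart muscle, and the secreted matrix proteins CCN1 and CCN2 are the targets most often used as readouts of YAP. AMOTL2 and LATS2 are targets that feed back on YAP as its inhibitors, AXL is a receptor tyrosine kinase, and ACTB, ACTG1, TAGLN, and CNN1 are SRF targets that build or bind actin filaments.

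Sequence before the transcription start was at hand for 7 of the genes (all but CCN1, ACTB, and TAGLN), with 9 promoters, from RefSeq (GRCh38.p14), and each was read over 250 bases. The letters CATTCC, or GGAATG on the other strand, which TEAD factors bind, stood in 4 of these 9 promoters, against 11.9% of all 35116 human promoters of the same length. A CArG box on either strand stood in 1 of the 9, against 1.16% of all promoters. These are matches of letters in a window, and whether a factor was bound there was not measured. The stretches of ANKRD1 and CCN2 are shown because their differences in MBD-TET1-CDwt had opposite signs with the main processing. With another background correction (normexp, below) both were negative. CNN1 is shown because its pattern was nearest to that of ANKRD1, and ACTG1 because it held the CArG box. TEAD letters and the CArG box are in capitals, and the last base is the one before the start.
ANKRD1 (chr10:90921088-90921337, minus strand): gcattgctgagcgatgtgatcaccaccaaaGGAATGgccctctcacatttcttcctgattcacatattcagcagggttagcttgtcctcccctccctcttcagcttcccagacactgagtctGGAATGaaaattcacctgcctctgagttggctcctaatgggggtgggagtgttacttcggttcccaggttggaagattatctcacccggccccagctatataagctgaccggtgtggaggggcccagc
CCN2 (chr6:131951373-131951622, minus strand): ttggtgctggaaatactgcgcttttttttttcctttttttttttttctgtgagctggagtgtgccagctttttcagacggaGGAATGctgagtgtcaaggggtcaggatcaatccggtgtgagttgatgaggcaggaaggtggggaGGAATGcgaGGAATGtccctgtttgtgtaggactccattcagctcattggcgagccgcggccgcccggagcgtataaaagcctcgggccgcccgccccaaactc
CNN1 (chr19:11538601-11538850, plus strand): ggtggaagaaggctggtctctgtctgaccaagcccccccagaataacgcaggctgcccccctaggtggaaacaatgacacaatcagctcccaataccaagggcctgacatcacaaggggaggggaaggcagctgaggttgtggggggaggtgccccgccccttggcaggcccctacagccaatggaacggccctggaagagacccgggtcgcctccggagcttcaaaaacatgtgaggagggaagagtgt
ACTG1 (chr17:81512800-81513049, minus strand): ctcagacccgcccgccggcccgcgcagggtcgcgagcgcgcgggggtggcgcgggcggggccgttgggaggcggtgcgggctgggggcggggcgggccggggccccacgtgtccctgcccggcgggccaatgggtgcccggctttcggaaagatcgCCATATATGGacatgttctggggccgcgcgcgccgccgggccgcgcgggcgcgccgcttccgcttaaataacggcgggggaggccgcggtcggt
In ANKRD1 the TEAD letters begin 220 and 128 bases before the start. In CCN2 they begin 169, 104, and 95 bases before it, so that this promoter carried them 3 times. A second promoter of AMOTL2 and a second promoter of AXL each carried them once, and neither TEAD letters nor a CArG box stood in the CNN1 or LATS2 window. The CpG dinucleotides that TET1 acts on when they are methylated numbered 4 in the ANKRD1 window, 6 in CNN1, 13 in CCN2, 25 in LATS2, and 43 in ACTG1, where the median promoter had 11. They numbered 0 and 29 in the first and second AMOTL2 windows and 4 and 13 in those of AXL. The methylation of these windows was not analysed here.

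Levels are given as log2 of the deposited spot intensity minus the 75th percentile of the array, so that 0 is the 75th percentile and a step of 1 is a doubling. That percentile lay between intensities of 328 and 527, 63.2% to 68.2% of probes on each array were well above background, and saturation was seen for no spot. Slide 1 held empty vector and TET1-CDwt, and slide 2 held the MBD fusions, so for a fusion against empty vector the slide and the construct cannot be told apart. TET1-CDwt against empty vector and MBD-TET1-CDwt against its inactive form each lie within 1 slide. All 6 markers of HEK293 (VIM, KRT8, KRT18, NEFL, NEFM, and PAX2) were well above background on all 8 arrays. Of 5 markers of smooth muscle, where CNN1 and TAGLN are abundant, DES was above background on all arrays and the other 4 on none. The summed intensity of all 5, DES included, ranged from 0.658 to 0.869 times the 75th percentile over the 8 arrays. DES alone had a log2 level of -0.67 to -0.25. Of 5 heart muscle markers, NPPB and ACTN2 were above background on all arrays, MYH6 on 1, and NPPA and TNNT2 on none, and the summed level lay between 0.109 and 0.252. Of 5 fibroblast markers COL1A1 was above background on all arrays and 3 on none, and of 4 endothelial markers CDH5 was above it on all, VWF on 1, and PECAM1 and KDR on none. Of 3 leucocyte markers PTPRC and CD14 were above background on all arrays and CD3E on none. The brighter TET1 and MBD2 probes did not separate the constructs, with 2.61 to 2.94 and 1.25 to 1.65 over the 8 arrays. A dimmer TET1 probe gave -0.91 and -0.70 in MBD-TET1-CDmut and -1.55 to -1.03 elsewhere, and whether these probes lie in the part carried by the plasmids is not known here.

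ANKRD1 was the gene of the group that differed most between constructs, and it was lowest in MBD-TET1-CDwt. Its level was -5.05 in MBD-TET1-CDwt #3 and -5.59 in #10, where it was not well above background. It was -2.38 in empty vector #1 and -3.50 in #2, -4.42 in TET1-CDwt #2 and -0.46 in #5, and -1.53 in MBD-TET1-CDmut #9 and -2.56 in #10. Both MBD-TET1-CDwt arrays thus lay below the other 6, with TET1-CDwt #2 next, whereas the other 3 groups overlapped. As intensities before scaling, the lowest and the highest of these signals were 6.81 and 335.
The group means of ANKRD1 were, in rising order, -5.32 ± 0.38 in MBD-TET1-CDwt, -2.94 ± 0.80 in empty vector, -2.44 ± 2.81 in TET1-CDwt, and finally -2.05 ± 0.73 with MBD-TET1-CDmut (SD, n = 2 each). Neighbors among the last 3 differed by less than the spread between clones, and with normexp background correction the last pair fell below empty vector, by differences of -0.63 and -0.10. The difference of MBD-TET1-CDwt from MBD-TET1-CDmut, within slide 2, was -3.27 (limma standard error 1.16), a 9.65-fold lower signal. That from empty vector, across slides, was -2.38 (standard error 1.16), or 5.20-fold lower. With the dim signal of #10 set to the lowest level that counted as above background there, these became 9.40-fold and 5.06-fold. The lowest level counted as above background was itself between -6.01 and -5.82 on slide 1 and between -5.56 and -5.51 on slide 2. With normexp the differences of ANKRD1 in MBD-TET1-CDwt were smaller, -1.51 from MBD-TET1-CDmut and -1.61 from empty vector, and leaving out any 1 clone gave -3.79 to -2.76 and -2.94 to -1.82. DCHS1, which was dim but above background on all arrays, moved the other way with that correction. Its differences in the same comparisons went from 0.59 to -0.52 and from 0.76 to -0.92. In these bulk samples, fewer cells that express a gene and less RNA per cell cannot be told apart.

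**Figure D1:**
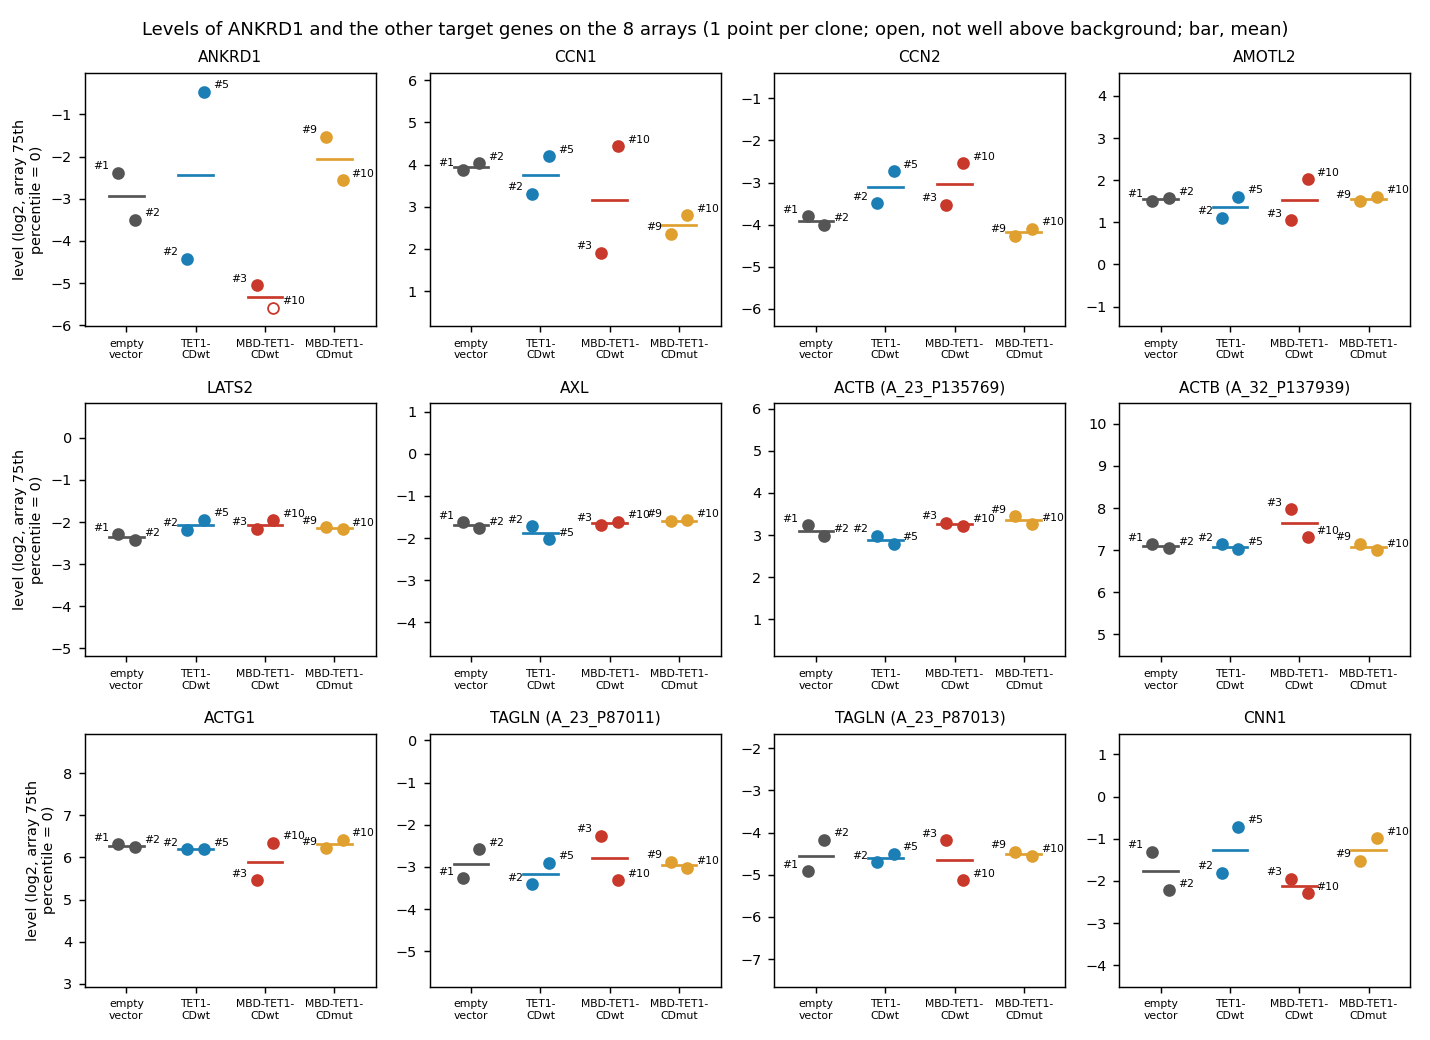
Level of each of the 12 probes (vertical axis, log2 intensity with the 75th percentile of the array at 0) by construct (horizontal axis), with 1 point for each clone, an open point where the probe was not well above background, and a bar at the group mean; every panel spans the same number of log2 units. ANKRD1 lies at -5.05 and -5.59 in MBD-TET1-CDwt and spreads from -4.42 to -0.46 between the TET1-CDwt clones, while LATS2 and AXL stay within 0.47 log2 units over all arrays.

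CCN1 was bright on every array and was lower in MBD-TET1-CDmut than in empty vector. Its level was 3.87 and 4.03 in empty vector #1 and #2, 3.31 and 4.20 in TET1-CDwt #2 and #5, and 2.36 and 2.79 in MBD-TET1-CDmut #9 and #10. The MBD-TET1-CDwt clones gave the lowest and the highest level of all 8 arrays, 1.90 in #3 and 4.43 in #10. MBD-TET1-CDmut and empty vector did not overlap, with a difference of -1.37 (standard error 0.75), 2.59-fold lower, which was -0.70 with normexp and rests on arrays of different slides. MBD-TET1-CDwt overlapped both, and its difference from empty vector was -2.05 without #10, 0.48 without #3, and 0.15 with normexp.

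CCN2, the close relative of CCN1, was dim and was highest in both constructs with the active TET1 domain. It gave -3.49 and -2.74 in TET1-CDwt #2 and #5 and -3.53 and -2.55 in MBD-TET1-CDwt #3 and #10. The levels were -3.80 and -4.00 in empty vector #1 and #2, and -4.27 and -4.09 in MBD-TET1-CDmut #9 and #10. All 4 arrays with an active domain therefore lay above the other 4. Relative to MBD-TET1-CDmut, CCN2 was 2.21-fold higher in MBD-TET1-CDwt (log2 difference 1.15, standard error 0.37), but this direction turned with normexp, to -0.23, where the median of all probes moved to -0.21. The differences from empty vector of 0.79 in TET1-CDwt and 0.87 in MBD-TET1-CDwt (standard error 0.37 each) turned likewise, to -0.97 and -0.72, where the medians of all probes were -0.43 and -0.38. Quantile and median scaling kept the direction of these 3 differences.

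AMOTL2, LATS2, and AXL, the YAP targets that act as inhibitors or as a receptor, differed little. AMOTL2 lay between 1.05 and 2.02, with both extremes in MBD-TET1-CDwt (#3 low, #10 high), and its group means differed from empty vector by -0.19 to 0.01. LATS2 spanned -2.42 to -1.95 over all arrays. Both empty vector clones of LATS2, at -2.29 and -2.42, were below the 6 arrays of the other constructs, by differences of 0.29, 0.29, and 0.20 (standard error 0.18 each) that all turned below 0 with normexp. AXL spanned -2.03 to -1.58 and its largest difference of means was -0.18 (standard error 0.18), in TET1-CDwt, where normexp gave -0.84.

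Of the actin genes, ACTB was measured by 2 probes that did not behave alike. The probe A_32_P137939 gave 7.97 in MBD-TET1-CDwt #3 and 7.31 in #10, above the 6.99 to 7.15 of the other 6 arrays, a difference of 0.57 (standard error 0.24) from MBD-TET1-CDmut and of 0.55 from empty vector. The probe A_23_P135769, with 10 spots on each array, differed by -0.09 and 0.15 in the same comparisons and overlapped in both. ACTG1 lay between 6.19 and 6.41 on 7 arrays and at 5.46 in MBD-TET1-CDwt #3, the array on which the brighter ACTB probe was highest. The difference of ACTG1 from MBD-TET1-CDmut was -0.41 (standard error 0.29) and the groups overlapped.

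TAGLN and CNN1, both actin-binding proteins of smooth muscle, were below the 75th percentile on all arrays. TAGLN overlapped in every comparison on both probes, with differences between -0.23 and 0.16. Its brighter probe was at -2.26 in MBD-TET1-CDwt #3 and -3.32 in #10. CNN1 was -1.31 and -2.22 in empty vector #1 and #2, -1.81 and -0.72 in TET1-CDwt #2 and #5, -1.95 and -2.30 in MBD-TET1-CDwt #3 and #10, and -1.53 and -0.99 in MBD-TET1-CDmut #9 and #10. Both MBD-TET1-CDwt arrays of CNN1 lay below both MBD-TET1-CDmut arrays, with a difference of -0.86 (standard error 0.45; 1.82-fold lower) that stayed negative in each alternative tried, from -1.13 to -0.59. Against empty vector they overlapped.

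When differences were counted by size, MBD-TET1-CDwt had 1 of the 12 probes at least 2-fold below empty vector and none 2-fold above it. This was ANKRD1, where 0.999% of all probes were 2-fold lower and 1.24% 2-fold higher. In MBD-TET1-CDmut against empty vector 1 probe, CCN1, was 2-fold lower and none 2-fold higher (0.419% and 0.37% of all probes). In MBD-TET1-CDwt against MBD-TET1-CDmut CCN2 was 2-fold higher and ANKRD1 2-fold lower (1.34% and 1.14%), and in TET1-CDwt against empty vector no probe of the group was 2-fold apart (0.353% higher and 0.568% lower). Without TET1-CDwt #2 the latter count was 3. At 5-fold only ANKRD1 was counted, as lower in MBD-TET1-CDwt relative to empty vector (0.302% of all probes higher and 0.027% lower) and to MBD-TET1-CDmut (0.236% and 0.0647%). None of the 12 was 5-fold apart in TET1-CDwt (0.0134% and 0.00447%) or in MBD-TET1-CDmut (0.0361% and 0.00901%) against empty vector.
Groups that did not overlap were counted as well, and these counts, too, come from the contrasts the genes were chosen with, so nothing is read from them. TET1-CDwt lay wholly above empty vector for 2 probes and below for 1 (10.7% and 17.0% of all probes), and MBD-TET1-CDwt above for 3 and below for 1 (13.7% and 17.2%). MBD-TET1-CDmut lay above empty vector for 3 and below for 2 (15.5% and 19.3%), and MBD-TET1-CDwt lay above MBD-TET1-CDmut for 2 and below for 3 (18.1% and 17.9%). The median difference of the 12 probes was -0.07, 0.02, 0.04, and -0.04 in the order of these comparisons, beside -0.03, -0.02, -0.02, and 0.01 for all probes tested. The 12 probes were thus centered near 0, and the comparisons with empty vector share its arrays.

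**Figure D2:**
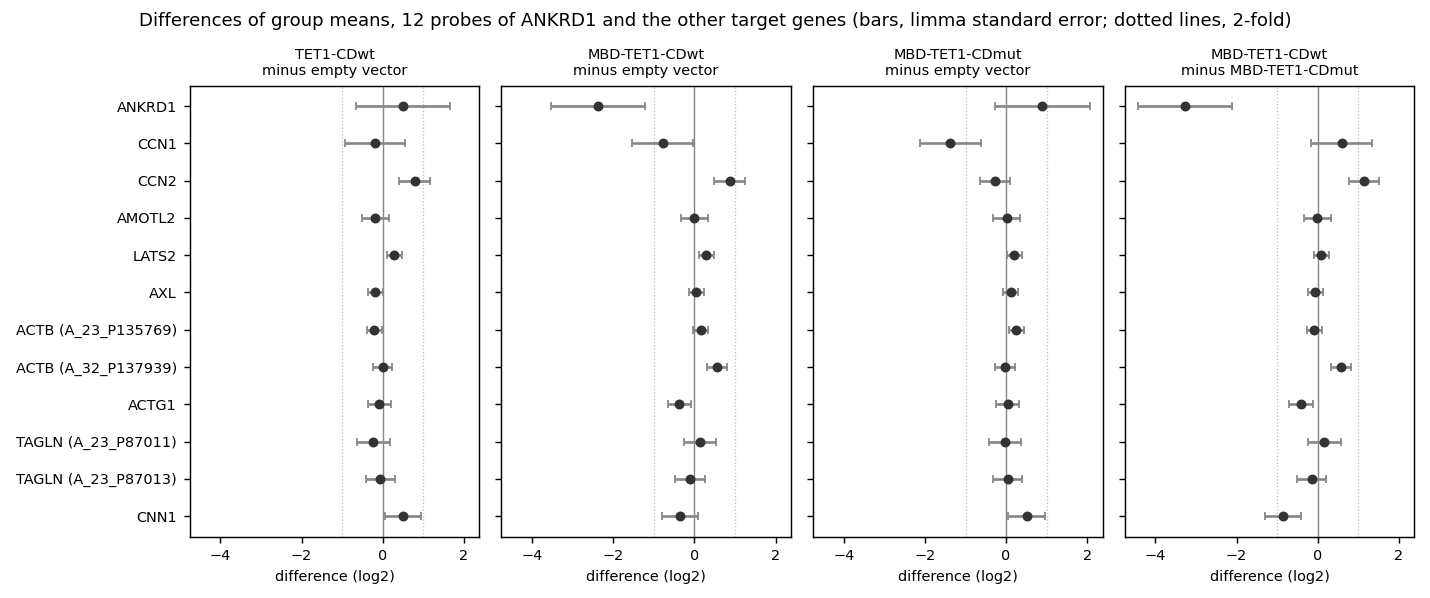
Difference of group means (horizontal axis, log2) for each of the 12 probes (vertical axis) in 4 comparisons, with the standard error from limma as bars and dotted lines at a 2-fold difference. ANKRD1 lies at -2.38 and -3.27 in the comparisons of MBD-TET1-CDwt, and the bars of most other probes reach 0 or come close to it; the 3 comparisons with empty vector share its 2 arrays.

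For ANKRD1 and CCN1 the widest gap between clones of 1 construct exceeded every difference between empty vector, or MBD-TET1-CDmut, and another construct. ANKRD1 was 15.6-fold higher in TET1-CDwt #5 than in #2, a gap of 3.97 that only 0.0755% of the tested probes reached between these clones, where the median gap was 0.26. Between the MBD-TET1-CDwt clones CCN1 was 5.76-fold higher in #10, a gap of 2.53 reached by 0.883% of probes with a median gap of 0.37. In MBD-TET1-CDwt #10, CCN2, AMOTL2, and ACTG1 were also higher than in #3, by 0.98, 0.97, and 0.88, while TAGLN was lower by 1.06 and 0.95 on its 2 probes. The MBD-TET1-CDmut clones had the smallest median gap over all probes, 0.17, but ANKRD1 was 2.04-fold higher in #9 than in #10. Over the 8 arrays ANKRD1 spanned 5.13 log2 units, a span reached by 0.266% of tested probes, followed by CCN1 with 2.53 (3.08%) and CCN2 with 1.72 (8.86%). These gaps and spans come from the levels by clone that the genes were chosen on, so the shares are a description only.

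**Figure D3:**
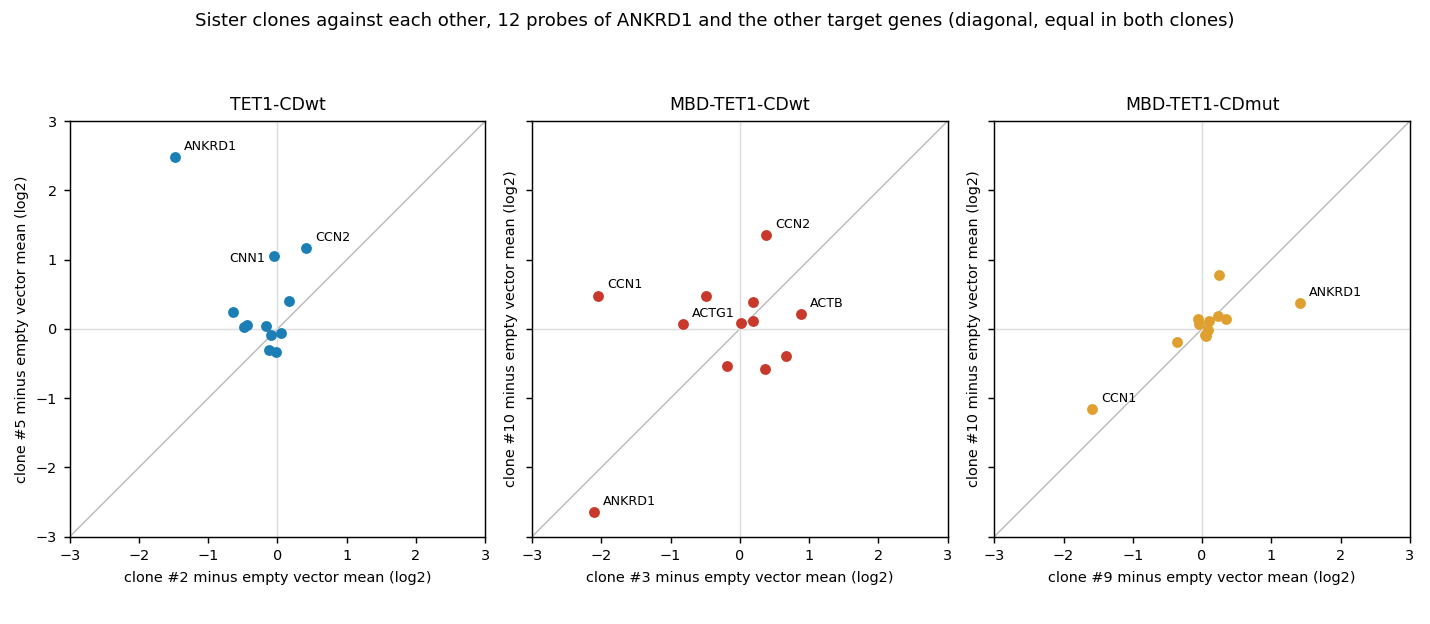
Each of the 12 probes in the 2 clones of a construct, as the difference of each clone from the mean of empty vector (both axes, log2), with the diagonal where both clones would be equal. ANKRD1 lies near the diagonal in MBD-TET1-CDwt and far from it in TET1-CDwt, and CCN1 lies far from it in MBD-TET1-CDwt.

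The other genes of these pathways were read from 7 lists with 92 genes, of which 76 were tested. None of the 76 was called by limma at an adjusted p under 0.05 in any of the 4 comparisons. At an unadjusted p under 0.05, MBD-TET1-CDwt had 6 above and 2 below empty vector and 5 above and 1 below MBD-TET1-CDmut, TET1-CDwt had 2 above and 1 below empty vector, and MBD-TET1-CDmut had 1 above and 2 below it. Over all 22530 probes limma called 23 above (0.102%) and 3 below (0.0133%) empty vector in MBD-TET1-CDwt, and 20 above (0.0888%) and 3 below (0.0133%) MBD-TET1-CDmut, totals that ranged from 8 to 97 and from 3 to 143 when 1 clone was left out. limma called none in the other comparisons. At an unadjusted p under 0.05, 640 of all probes were above and 847 below empty vector in MBD-TET1-CDwt, and 739 above and 802 below MBD-TET1-CDmut. Against empty vector 147 were higher and 417 lower in TET1-CDwt, and 194 higher and 409 lower in MBD-TET1-CDmut. List medians with normexp are to be read beside the medians of all probes under it, which were -0.38 (active fusion) and -0.19 (inactive fusion) against empty vector and -0.21 between the fusions.

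The gene of these lists with the largest difference was TPM2, which encodes a tropomyosin of actin filaments and is a cytoskeletal SRF target. It gave 2.05 in MBD-TET1-CDwt #3 and 3.91 in #10, against 0.06 and 0.68 in empty vector #1 and #2, 0.80 and 0.32 in TET1-CDwt #2 and #5, and 0.49 and 0.31 in MBD-TET1-CDmut #9 and #10. Both MBD-TET1-CDwt arrays lay above the other 6. The difference of TPM2 was 2.61 from empty vector and 2.58 from MBD-TET1-CDmut (standard error 0.57 each), 6.09-fold and 5.98-fold higher, with limma adjusted p-values of 0.412 and 0.426. With normexp these differences were 2.63 and 2.43. Without MBD-TET1-CDwt #3 they were 3.53 and 3.51, and without #10 they were 1.68 and 1.65 (3.20-fold and 3.14-fold). Each of these fits leaves 1 clone in the group. The other 17 tested genes of the cytoskeletal list had no difference of 2-fold in any comparison. Among them MYH9, the heavy chain of nonmuscle myosin, was 1.74 and 1.79 in empty vector and between 2.14 and 2.31 on the other 6 arrays, with differences of 0.40 to 0.51 (standard error 0.16) and limma adjusted p-values of 0.690 and above. Its dimmer second probe overlapped empty vector in both constructs with the active domain but lay above it in MBD-TET1-CDmut, at -3.43 and -3.05 against -3.44 and -4.17. FLNA, which crosslinks actin, differed by 0.43 in MBD-TET1-CDwt from empty vector and overlapped.

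The factors themselves were read from a pair of lists. Of YAP, TAZ, the TEAD factors, and the VGLL cofactors, 8 of 9 genes were tested, and the differences of MBD-TET1-CDwt from empty vector lay between -0.27 (VGLL3) and 0.17, with a median of 0.01. TEAD4 and TEAD2, which bind the TEAD letters, differed by -0.25 and -0.21 in that comparison, and by 0.04 and -1.03 with normexp. Of SRF and its cofactors, 6 of 7 were tested, with a median difference of -0.15 (-0.79 with normexp). ELK3, a ternary complex factor that can repress SRF targets, had the largest difference of them, -1.29 (standard error 0.61, limma adjusted p = 0.796), and was not well above background in MBD-TET1-CDwt #3 or MBD-TET1-CDmut #10. Without MBD-TET1-CDwt #3 its difference was -0.40. MRTFB, the coactivator, differed by 0.47 and ELK1 by -0.41 (limma adjusted p = 0.789 and 0.756).

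The Hippo kinases and their upstream regulators, all 15 of which were tested, had a median difference of 0.23 in MBD-TET1-CDwt from empty vector and of 0.27 from MBD-TET1-CDmut, beside -0.02 and 0.01 for all probes. With normexp these medians were 0.12 and 0.03, or 0.50 and 0.24 above the median of all probes. FAT4 and DCHS1, the large cadherins at the top of the pathway, differed by 1.09 and 0.76 from empty vector (limma adjusted p = 0.721 and 0.873), differences that normexp turned below 0, to -0.92 for DCHS1. FAT4 was dim, between -6.17 and -4.20, and not well above background in empty vector #1. AMOT, a binding partner of YAP and the relative of AMOTL2, was 3.41 and 2.77 in MBD-TET1-CDwt #3 and #10, 2.45 and 2.46 in empty vector, and 2.33 and 2.22 in MBD-TET1-CDmut. Its differences of 0.63 and 0.81 did not pass the test (limma adjusted p = 0.739 and 0.604), and its dimmer second probe overlapped empty vector.

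Of the other YAP/TEAD targets, 13 of 17 were tested, with medians of 0.34 and 0.20 in MBD-TET1-CDwt against empty vector and against MBD-TET1-CDmut, which normexp turned to -0.23 and -0.14, or 0.15 and 0.07 above the median of all probes. NT5E, the ecto-nucleotidase CD73, gave -4.81 and -4.98 in MBD-TET1-CDwt, -5.28 and -7.61 in empty vector, and -7.24 and -5.54 in MBD-TET1-CDmut, and was above background on the MBD-TET1-CDwt arrays and in empty vector #1. It passed the filter only through MBD-TET1-CDwt, so no difference is given. NT5E is still among the 13 tested genes, so these medians and the counts over all lists include it. GADD45A, a growth arrest gene, differed by -0.88 and FOXF2, a forkhead factor, by 0.71 in MBD-TET1-CDwt from empty vector (limma adjusted p = 0.825 and 0.738). With normexp these differences were -0.02 and 1.03. ANKRD1 had the lowest difference from empty vector in MBD-TET1-CDwt of the YAP targets measured here. It was chosen on these same levels, so nothing is read from this rank.

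Of the immediate early SRF targets, 7 of 10 were tested, and all 7 had a negative difference in MBD-TET1-CDmut from empty vector, with a median of -0.49 beside -0.02 for all probes, while none was called and 1 passed at an unadjusted p under 0.05. With normexp 5 of the 7 were below 0, with a median of -0.49. FOS, a subunit of AP-1, was -4.35 and -4.65 in MBD-TET1-CDmut #9 and #10, against -2.42 and -3.21 in empty vector, -2.28 and -1.28 in TET1-CDwt, and -4.24 and -2.42 in MBD-TET1-CDwt #3 and #10. Its difference in MBD-TET1-CDmut was -1.69 (standard error 0.62, limma adjusted p = 1.00), and -0.75 with normexp. The zinc finger factor EGR1 was highest in TET1-CDwt #5 at -0.18, which was also the array with the highest ANKRD1 and FOS, and lowest in MBD-TET1-CDmut #10 at -3.55. JUNB differed by -0.40 in MBD-TET1-CDmut. The median of the 7 genes was 0.24 in MBD-TET1-CDwt against MBD-TET1-CDmut, within slide 2, and -0.23 with normexp, or -0.02 from the median of all probes.

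Among close relatives and ligands, 9 of 12 were tested, with a median difference of -0.16 in MBD-TET1-CDwt from empty vector (-0.87 with normexp). ANKRD2, the paralog of ANKRD1 in skeletal muscle, was at the limit of detection. It was well above background at -5.46 in both TET1-CDwt clones and not at -5.44 in empty vector #1 or -5.36 in MBD-TET1-CDwt #10, so no difference is given. CCN3, a relative of CCN1 and CCN2, spread from -4.97 to -2.23 between the empty vector clones, so that its difference of -1.09 in MBD-TET1-CDwt (standard error 0.96, limma adjusted p = 0.905) was within that spread. CCN3 was not well above background in MBD-TET1-CDwt #3, at -5.56. Its difference was -0.22 without that clone, and -2.46 and 0.28 without empty vector #1 and #2. PROS1, a ligand of the receptor family of AXL, differed by -0.26 in MBD-TET1-CDwt and by -0.53 in TET1-CDwt (limma adjusted p = 0.900 and 1.00). A dimmer second probe of PROS1 was not well above background in MBD-TET1-CDwt, at -5.81 and -5.53, and gave -4.80 and -4.18 in empty vector.

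**Figure D4:**
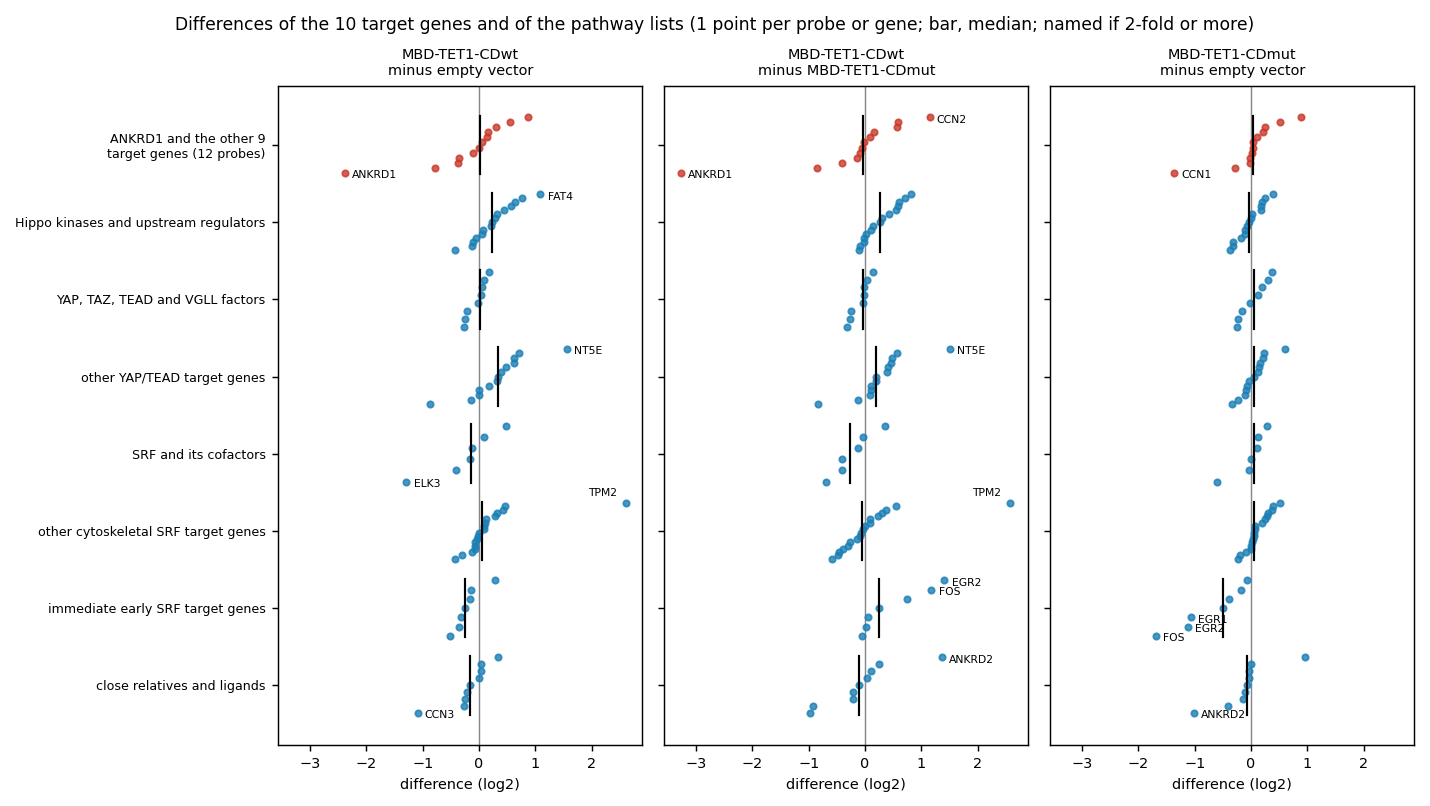
Differences of group means (horizontal axis, log2) for the 12 probes of ANKRD1 and the other target genes (red) and for the tested genes of 7 pathway lists (blue, 1 point for each gene, the probe with the highest mean level), in rows by list, with a black bar at the median of each row and names at differences of 2-fold or more. TPM2 at 2.61 and 2.58 and ANKRD1 at -2.38 and -3.27 mark the ends of the comparisons of MBD-TET1-CDwt, and the median bars of all rows lie within 0.5 of 0. NT5E and ANKRD2, for which the text gives no difference, are also plotted.

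Genes whose pattern over the arrays was most like that of ANKRD1 were taken from 7081 tested probes that spanned at least 1 log2 unit, by Pearson's r over 8 arrays. They were LBX2, a homeobox gene (r = 0.98), GTPBP2, a GTP-binding protein (0.97), MAFG, a small Maf factor (0.97), PGM3, an enzyme of amino sugar synthesis (0.96), and KRTAP19-1, a keratin-associated protein (0.95). KRTAP19-1 ranged widest, from -0.19 and -0.07 in MBD-TET1-CDwt to 3.86 in MBD-TET1-CDmut #9 and 4.59 in TET1-CDwt #5. The other 4 spanned much less than ANKRD1, as PGM3 did with 1.76 to 2.86. LBX2 lay at -5.62 and -5.53 in MBD-TET1-CDwt #3 and #10, below the lowest levels counted as above background there (-5.56 and -5.51). Of the other 11 probes of the group, CNN1 had the highest r with ANKRD1 (0.83), and the rest lay between -0.58 and 0.34, with 0.06 for CCN1 and -0.24 for CCN2. Points on these patterns share clones and slides, ANKRD1 was dim on several of them, and the values of r describe 8 arrays only.

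**Figure D5:**
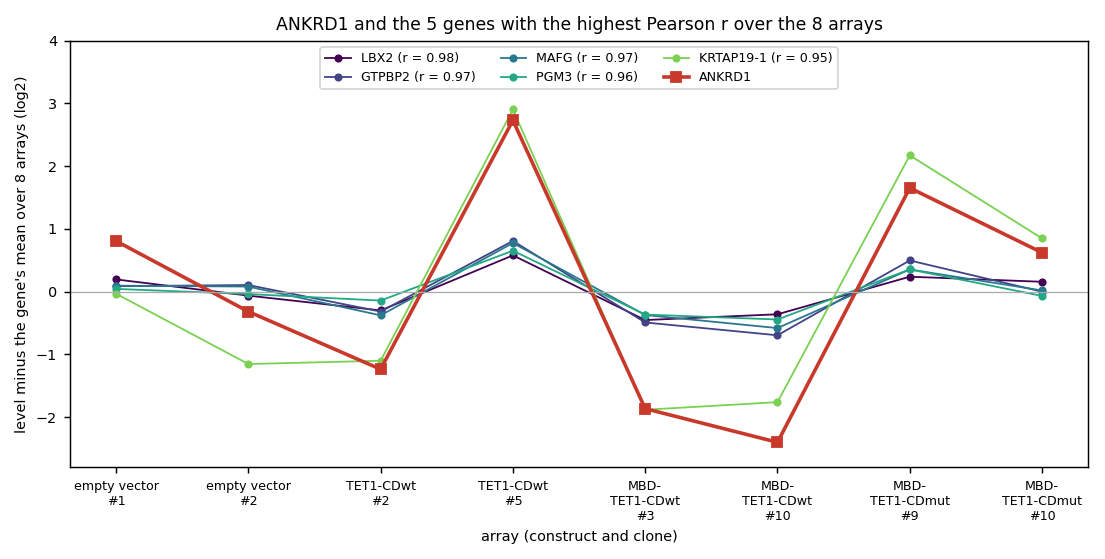
Level minus the mean over 8 arrays (vertical axis, log2) on each array (horizontal axis, construct and clone) for ANKRD1 and the 5 genes with the highest Pearson's r. The lines rise at TET1-CDwt #5 and MBD-TET1-CDmut #9 and are low in both MBD-TET1-CDwt clones, with ANKRD1 and KRTAP19-1 covering the widest range.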

How the data were processed

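Cy-3 labeled cRNA of 8 stable HEK293T lines was hybridized to 1 array each (Agilent Human Gene Expression, 4 constructs with 2 clones each), which limits the precision. The deposited values are spot intensities that the authors obtained with Agilent Feature Extraction (version 9.5.1 per the submitters' processing notes, 10.7.3.1 per the file headers), background-subtracted and not scaled between arrays. The series table holds the same intensities. Control and outlier-flagged spots were left out, log2 intensities were averaged by probe, and the 75th percentile of each array was subtracted. A probe was well above background if more than 50% of its spots were. limma (version 3.58.1, R 4.3.3) was fitted to 4 group means over all 8 arrays and to the 22530 probes that were well above background in both clones of some group, and p-values were adjusted over these probes by the Benjamini-Hochberg method. Its p-values set a difference of group means against the spread between arrays of the same construct, estimated over the 4 groups together. With 1 array for each clone, that spread holds differences of clones and of arrays alike. Symbols came from RefSeq accessions and named 74.5% of probes.

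The genes and the pathway lists were chosen with earlier results of these data known. Beyond the 10 genes, the text names the 3 genes of each list with the largest difference in MBD-TET1-CDwt from empty vector, any gene called, the 5 genes most like ANKRD1, and TET1 and MBD2. Markers were chosen by cell type. Where differences were counted by size, a signal not well above background was replaced by the lowest signal that was, if that was higher. Alternatives were normexp background correction (normexp), quantile and median scaling, other filters, outlier spots kept, other priors and fits, and each clone left out. Normexp was run on median spot signals with an offset of 50, since the deposited scanner output holds no mean spot signals. Python 3.11.15, numpy 2.4.6, pandas 2.3.3, and matplotlib 3.10.9 were used, and the fit was tested on simulated data. Probes carry no coordinates here, because the design of the array used an earlier build than the promoters.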

Additional observations from a re-analysis of the deposited data

How the results depend on the processing

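No paired analysis was possible because the groups compared share fewer than 2 clone numbers, and a number only names a colony. The count of probes called was 26 in MBD-TET1-CDwt against empty vector and 23 against MBD-TET1-CDmut. These became 0 and 0 with normexp, 10 and 11 with no filter on dim probes, 0 and 0 over probes well above background on all arrays, 16 and 10 with a trended and robust prior, and 2 and 5 with only the compared groups in the fit. That last fit called 1 probe in MBD-TET1-CDmut against empty vector, where none was called otherwise. Leaving out 1 clone gave 8 to 97 calls and 3 to 143 calls in the comparisons of MBD-TET1-CDwt, and 0 to 2 in TET1-CDwt, the 2 without TET1-CDwt #2. The first range was 8 and 10 without empty vector #2 and #1 and 94 and 97 without MBD-TET1-CDwt #10 and #3, and the second 3 without either MBD-TET1-CDmut clone and 75 and 143 without MBD-TET1-CDwt #3 and #10. These fits take the lone clone to vary like the other groups. Pathway genes called in MBD-TET1-CDwt ranged from 0 to 1 in both comparisons, the 1 being TPM2 without MBD-TET1-CDwt #3.

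Of the 12 probes, 0 were 2-fold apart from empty vector in TET1-CDwt, 1 with MBD-TET1-CDwt, and 1 with MBD-TET1-CDmut, and 2 were 2-fold apart between the fusions. With normexp these counts were 2, 3, 0, and 1, and without 1 clone they ranged over 0 to 3, 1 to 2, 1 to 2, and 1 to 4. The highest of these were found without TET1-CDwt #2, either MBD-TET1-CDwt clone, MBD-TET1-CDmut #10 or empty vector #1, and MBD-TET1-CDwt #3, respectively. A threshold of 5-fold left 0 in MBD-TET1-CDmut against empty vector and 1 between the fusions. Over probes well above background on all arrays, which leaves ANKRD1 out, 0 and 1 remained in the comparisons of MBD-TET1-CDwt. Of 192 differences of the 12 probes under other scalings, background correction, and outlier spots, 148 moved by less than 1 SD between clones and 37 changed sign, and of 192 without 1 clone 38 changed sign. Normexp moved the median difference of all probes from empty vector to -0.43 (TET1-CDwt), -0.38 (active fusion), and -0.19 (inactive fusion), and that between the fusions to -0.21, and it raised the differences of the bright ACTB and AMOTL2 probes while lowering those of the dim CCN2, LATS2, AXL, and TAGLN probes. The cause was not tested. Of the 12 probes, ANKRD1 in MBD-TET1-CDwt #10 was not well above background, which limits its differences there.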
